A study of Mus musculus with 32 samples.

Results

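Sgk1, Tsc22d3, Klf15, Klf9, Pdk4, Plin4, Hif3a, Sult1a1, Cebpd and Ddit4 are 10 genes that glucocorticoids induce in many tissues, and their transcripts were followed in the basolateral amygdala of mice after social defeat. They were picked by gene name, and all 10 were found once among the 40392 genes of the deposited expression table. The set was chosen with earlier results of these data known, so shares of all genes beside its counts are descriptive. All 10 also passed the filter on low counts, which left 23778 genes for testing. The basolateral amygdala is the part of the amygdala that links sensory cues to fear and reward, and in social defeat a mouse is attacked by a dominant, aggressive one.

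The 32 libraries of polyadenylated RNA form 8 groups of 4. These are adolescent defeat day 1, adolescent control day 1, adolescent defeat day 21, adolescent control day 21, adult defeat day 1, adult control day 1, adult defeat day 21 and adult control day 21. Mice were 6 or 9 weeks old by the design text, which does not say which age belongs to which class. The strain, the animals behind each library and the event that starts the day count are not stated in the labels. The p-values therefore measure the spread between these libraries, which may be technical in part. The labels give the tissue only as brain and the design text names the amygdala; Slc17a7, a marker of cortical-type excitatory neurons, lay at 789 to 1279 CPM (counts scaled to a common total with TMM factors), and Rspo2, a marker of basolateral amygdala neurons, at 11 to 22.2 CPM over all libraries.

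Corticosterone, the main glucocorticoid of mice, is released by the adrenal cortex under stress and crosses into the brain. It binds the glucocorticoid receptor, encoded by Nr3c1, and the mineralocorticoid receptor, encoded by Nr3c2, which then enter the nucleus and bind palindromic response elements in DNA. In brain the induced genes are expressed in neurons, astrocytes, oligodendrocytes and vessel cells to differing degrees, and in bulk tissue fewer cells of a type and less RNA per cell cannot be told apart.

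The genes fall into 3 classes by what their products do. Sgk1 is a kinase that acts on ion channels and transporters, Tsc22d3 (also known as GILZ) is a leucine zipper protein that restrains inflammatory transcription factors, and Ddit4 (REDD1) restrains the growth kinase complex mTORC1. Klf15, Klf9 and Cebpd are transcription factors, and Hif3a is a member of the hypoxia-inducible factor family that can oppose its relatives. Pdk4 switches off the pyruvate dehydrogenase complex, Plin4 coats lipid droplets and Sult1a1 attaches sulfate to phenols.

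Sgk1 was the gene whose promoter held a full palindrome of the kind the receptor binds, so its window is shown. RefSeq promoter windows (GRCm38.p6, from 250 bases before to 50 bases after a transcript start) were found for 9 of the 10 genes, 16 windows in all, with none for Cebpd. A relaxed palindromic glucocorticoid response element, which is GNACA and TGTNC with 3 bases between them, was searched on both strands. It matched 1 window, that of Sgk1 at chr10:21993640-21993939 on the plus strand, starting at position -188 from the transcript start, and is in capitals here.

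Sgk1 promoter: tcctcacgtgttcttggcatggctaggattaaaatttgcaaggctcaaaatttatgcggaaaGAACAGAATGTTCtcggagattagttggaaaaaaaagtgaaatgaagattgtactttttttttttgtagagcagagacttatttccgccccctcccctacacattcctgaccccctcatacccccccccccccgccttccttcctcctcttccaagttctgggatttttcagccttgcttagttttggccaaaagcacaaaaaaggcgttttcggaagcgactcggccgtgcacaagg

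Of all 32851 promoter windows in the table, 156 (0.475%) held this palindrome. The half-site AGAACA or its reverse complement TGTTCT, which can overlap the palindrome, was present in 5 windows of 3 genes, Sgk1, Sult1a1 and Tsc22d3, against 19.0% of all windows. The E-box CACGTG, a motif bound by clock and Myc family factors, was present in windows of Klf15, where it occurred 3 times, and Sgk1, against 7.15% of all windows. These matches describe the letters of the windows and say nothing about binding in these samples.

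Levels between genes were compared as FPKM, which divides by gene length and by library depth. Klf9 was the most abundant with a mean of 34.8 FPKM over the 32 libraries, followed by Ddit4 at 21.4, Sgk1 at 19.0, Tsc22d3 at 14.1 and Klf15 at 8.37 FPKM. Sult1a1 averaged 5.12, Pdk4 3.49, Plin4 1.79, Hif3a 1.59 and Cebpd 1.23 FPKM. Even Cebpd, the least abundant, had 153 to 666 counts in a library, out of library totals of 53885799 to 82208892.

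The genes differed in how far they ranged over the libraries. Plin4 spanned 2.52 to 30.5 CPM, a 12.1-fold range, and Sgk1 40.7 to 198 CPM, a 4.88-fold range. Klf9 stayed within 150.3 to 218 CPM, a 1.45-fold range. Tsc22d3 ranged from 41.2 to 93.4 CPM, Klf15 from 17.2 to 34.8, Pdk4 from 7.65 to 20.2, Hif3a from 5.95 to 19.8, Sult1a1 from 5.32 to 19.8, Cebpd from 2.78 to 9.77 and Ddit4 from 23.5 to 59.8 CPM.

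The group with the highest mean was adolescent defeat day 1 for Sgk1, Klf9, Hif3a, Sult1a1 and Ddit4. It was adult control day 21 for Tsc22d3, Pdk4 and Cebpd, adult defeat day 1 for Klf15 and adult defeat day 21 for Plin4. The lowest mean lay in adolescent defeat day 21 for 7 genes and in adolescent control day 1 for Klf15, Pdk4 and Cebpd. When the 8 groups were ordered by their means, neighbouring groups overlapped in their libraries throughout that order for 9 genes, Hif3a being the exception with 6 of 7 neighbouring pairs overlapping.

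**Figure D1:**
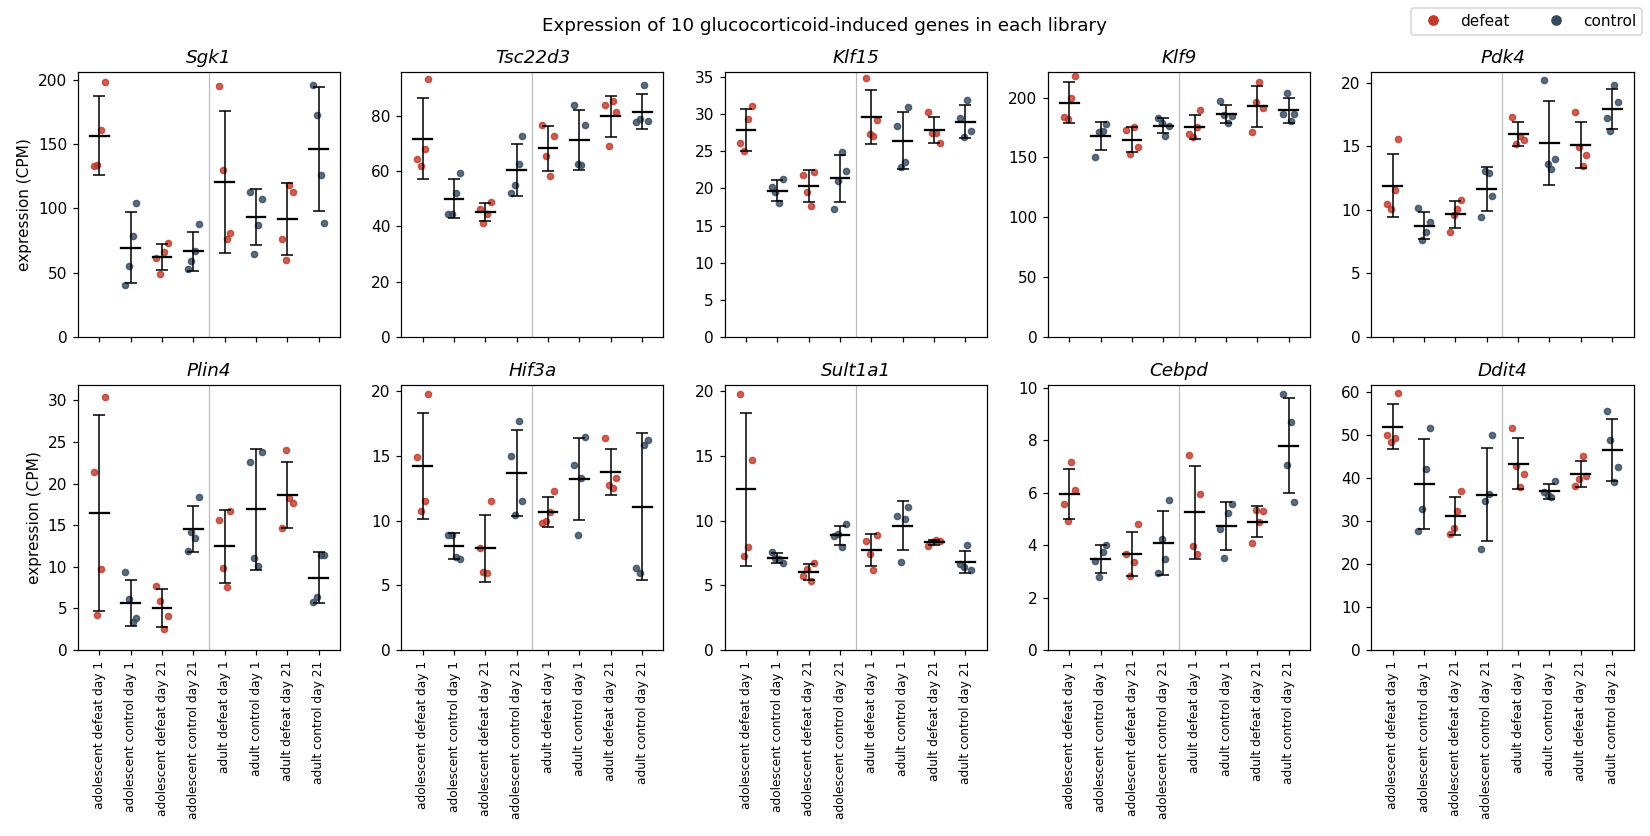
Expression of the 10 genes in CPM (vertical axes, linear from 0) in each of the 32 libraries, by group, with defeat in red and control in blue. Points are libraries, horizontal bars are group means and whiskers are the SD over 4 libraries; in the adolescent day 1 pair the defeat mean lies above the control mean in all 10 panels.

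Whether defeat was followed by higher levels of these genes at day 1 in adolescents was asked first. All 10 genes had higher means in the adolescent defeat libraries than in the adolescent controls at day 1, while 49% of all genes had a log2 difference above 0. The differences ranged from 0.22 for Klf9 to 1.54 for Plin4, with a median of 0.65, against -0.003 over all genes tested. None passed the adjusted threshold of 0.05 in edgeR's quasi-likelihood test, which 0.0547% of all genes did. DESeq2 called 3, Tsc22d3, Klf15 and Sult1a1, and the share of all genes it called is not given here. At an unadjusted p under 0.05, 10 of the 10 lay higher, against 4.24% of all genes. For 6 of the 10, Sgk1, Tsc22d3, Klf15, Klf9, Hif3a and Cebpd, every defeat library lay above every control library, as did 2.64% of all genes.

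Among the signalling regulators, Sgk1 (ENSMUSG00000019970, chromosome 10) had 133, 134, 161 and 198 CPM in the 4 adolescent defeat libraries, against 40.7, 54.9, 78.2 and 104 CPM in the adolescent controls. The groups did not overlap, and the log2 difference was 1.17 ± 0.29 (SE; 95% interval 0.58 to 1.76) with an edgeR adjusted p of 0.127. Tsc22d3 (ENSMUSG00000031431, chromosome X) had 64.4, 61.8, 67.9 and 93.4 CPM in the defeat libraries, against 44.4, 44.4, 51.99 and 59.2 CPM in the controls. The highest control lay just under the lowest defeat library, and the log2 difference was 0.52 ± 0.12 (SE, adjusted p = 0.105). Ddit4 (ENSMUSG00000020108, chromosome 10) had 50.05, 48.4, 49.3 and 59.8 CPM in the defeat libraries and 27.7, 32.7, 42.01 and 51.6 CPM in the controls. Its highest control lay within the defeat range, and the log2 difference was 0.43 ± 0.16 (SE, adjusted p = 0.488).

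Of the transcription factors, Klf15, Klf9 and Cebpd and the hypoxia-family gene Hif3a all had groups without overlap. Klf15 (ENSMUSG00000030087, chromosome 6) had 26.1, 24.99, 29.4 and 31.2 CPM in the defeat libraries, against 20.1, 19.5, 17.98 and 21.3 CPM in the controls, a log2 difference of 0.50 ± 0.10 (SE, adjusted p = 0.0613), the smallest adjusted p of the 10. Klf9 (ENSMUSG00000033863, chromosome 19) had 184, 182, 199.7 and 218 CPM in the defeat libraries, against 150.3, 171, 172 and 178 CPM in the controls. Its groups were apart by a narrow gap, with a log2 difference of 0.22 ± 0.06 (SE, adjusted p = 0.279). Cebpd (ENSMUSG00000071637, chromosome 16) had 5.57, 4.91, 7.18 and 6.12 CPM in the defeat libraries, against 3.39, 2.78, 3.75 and 3.99 CPM in the controls. None of its controls reached the lowest defeat library, and the log2 difference was 0.77 ± 0.22 (SE, adjusted p = 0.262). Hif3a (ENSMUSG00000004328, chromosome 7) had 14.96, 10.8, 11.5 and 19.8 CPM in the defeat libraries, against 8.90, 8.89, 7.22 and 7.07 CPM in the controls, also without overlap, and a log2 difference of 0.83 ± 0.27 (SE, adjusted p = 0.366).

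Plin4 and Sult1a1 varied widely among the defeat libraries, and all 3 metabolic genes overlapped between the groups. Plin4 (ENSMUSG00000002831, chromosome 17) had 21.4, 4.14, 9.75 and 30.5 CPM in the defeat libraries, against 9.34, 6.16, 3.33 and 3.78 CPM in the controls. Replicate 2 of the defeat group lay within the control range, and the log2 difference was 1.54 ± 0.43 (SE, adjusted p = 0.26). Sult1a1 (ENSMUSG00000030711, chromosome 7) had 19.8, 7.29, 7.97 and 14.7 CPM in the defeat libraries, against 7.57, 7.07, 7.03 and 6.69 CPM in the controls, with a log2 difference of 0.81 ± 0.20 (SE, adjusted p = 0.127). Its 2 highest defeat libraries stood apart from the other two, which lay close to the controls. Pdk4 (ENSMUSG00000019577, chromosome 6) had 10.4, 10.1, 11.6 and 15.5 CPM in the defeat libraries, against 10.1, 7.65, 8.22 and 9.04 CPM in the controls, overlapping at their edges, and a log2 difference of 0.44 ± 0.14 (SE, adjusted p = 0.341).

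Replicate 2 of the adolescent defeat day 1 group was the lowest of its group for 9 of the 10 genes, and replicate 4 the highest for 8. Without replicate 2, which was the lowest of its group for each of them, edgeR called Klf15, Plin4 and Sult1a1. Leaving out the lowest defeat library raises such differences, and the share of all genes called in that fit is not given here. Without replicate 1 the log2 difference of Sult1a1 was 0.49, and without replicate 4 that of Pdk4 was 0.29.

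**Figure D2:**
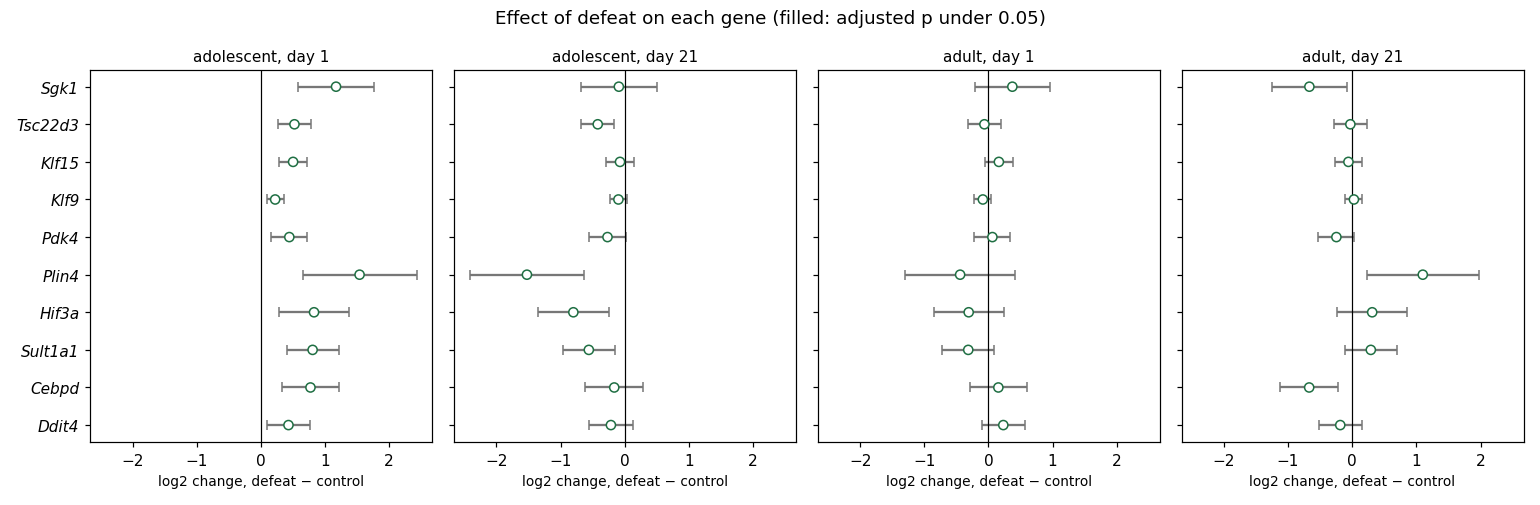
Log2 difference of defeat minus control (horizontal axes) for each gene in adolescents and adults at day 1 and day 21. Points are edgeR estimates and whiskers 95% intervals; no point is filled, since none passed the adjusted threshold, and in the adolescent day 1 panel all 10 intervals lie above 0.

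Transcripts of vessels, blood and choroid plexus were also higher in the adolescent defeat day 1 libraries. Of 21 vessel genes, 20 lay above 0 with a median log2 difference of 0.34, and their summed level was 547 to 665 CPM in the defeat libraries, against 429 to 507 CPM in the controls. Slc2a1, the glucose transporter of brain endothelium, lay at 79.6 to 126 CPM in the defeat libraries, against 56.5 to 70.3 CPM in the controls. Cldn5, another endothelial gene, overlapped, at 28.0 to 29.5 CPM in the defeat libraries and 25.1 to 31.4 CPM in the controls. The blood list summed to 140 to 279 CPM in the defeat libraries, against 92.3 to 161 CPM in the controls, and Alas2, which starts haem synthesis in red cell precursors, lay at 1.89 to 3.45 CPM against 1.33 to 1.74 CPM in the controls. None of its 8 genes was at 0 in all defeat libraries, while Hemgn was at 0 in all controls. Ttr, the most abundant choroid plexus transcript, lay at 813 to 1220 CPM in the 4 defeat libraries and above 100 CPM in 1 of the 4 controls, replicate 3, which had 982 CPM. The 14 choroid plexus genes summed to 1560 to 2113 CPM in the defeat libraries, against 203 to 1810 CPM in the controls, and none of the vessel or choroid plexus genes was at 0 throughout a group.

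These transcripts were entered in the fit in turn, and none of the 10 genes passed the adjusted threshold with or without them. With log2 Ttr as a covariate the median log2 difference was 0.63, with the vessel score 0.50 and with the blood score 0.42, with all 10 above 0 in each. The edgeR adjusted p lay between 0.134 and 0.640 with Ttr, 0.439 and 0.810 with the vessel score, and 0.449 and 0.751 with the blood score. The blood score lowered Plin4 to 0.93, Sult1a1 to 0.53 and Cebpd to 0.43, and the vessel score lowered Hif3a to 0.53. The comparison without libraries above 100 CPM of Ttr could not be fitted, because no defeat library of that group is at or under 100 CPM.

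At day 21 the same adolescent comparison ran the other way. All 10 genes had log2 differences below 0, with a median of -0.24, while 50.9% of all genes lay above 0. None passed the adjusted threshold in edgeR, DESeq2 or limma, and 0.0126% of all genes did so in edgeR. Counting unadjusted p-values under 0.05, 4 lay lower, Tsc22d3, Plin4, Hif3a and Sult1a1, against 2.99% of all genes. For 3 of them every defeat library lay below every control library, as did 1.94% of all genes.

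Plin4 had 7.71, 5.90, 2.52 and 4.02 CPM in the adolescent defeat libraries at day 21, against 11.9, 14.2, 13.5 and 18.4 CPM in the controls, with a clear gap and a log2 difference of -1.52 ± 0.43 (SE, adjusted p = 0.464). Tsc22d3 had 46.3, 41.2, 44.6 and 48.9 CPM in the defeat libraries, against 51.95, 54.9, 62.6 and 72.9 CPM in the controls, again apart, with a log2 difference of -0.42 ± 0.12 (SE, adjusted p = 0.477). Sult1a1 had 5.75, 6.29, 5.32 and 6.72 CPM in the defeat libraries, against 8.78, 8.92, 7.99 and 9.75 CPM in the controls, and a log2 difference of -0.56 ± 0.20 (SE, adjusted p = 0.646). In these 3 genes the lowest control library was still above the highest defeat library. Hif3a had 7.86, 6.03, 5.95 and 11.6 CPM in the defeat libraries, against 14.99, 10.5, 17.7 and 11.5 CPM in the controls, where replicate 4 of the defeat group reached the control range, and a log2 difference of -0.80 ± 0.27 (SE, adjusted p = 0.588).

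The remaining genes lay close together in the 2 adolescent groups at day 21. Sgk1 averaged 62.4 ± 10.1 CPM in the defeat libraries and 66.5 ± 15.1 CPM in the controls (SD, n = 4 each), a log2 difference of -0.09 with a 95% interval of -0.68 to 0.50. Klf15 averaged 20.3 ± 2.13 CPM after defeat and 21.4 ± 3.17 CPM in controls, and Klf9 165 ± 10.8 CPM after defeat and 177 ± 6.28 CPM in controls. The Klf15 difference was smaller than the SD of either group, and the Klf9 libraries of the 2 groups overlapped. Pdk4 averaged 9.65 ± 1.06 CPM after defeat and 11.6 ± 1.72 CPM in controls, Cebpd 3.66 ± 0.832 CPM after defeat and 4.10 ± 1.22 CPM in controls, and Ddit4 31.1 ± 4.46 CPM after defeat and 36.1 ± 10.8 CPM in controls. Vessel transcripts lay on the other side of 0 here: 20 of 21 lay above it, with a median log2 difference of 0.28 and a summed level of 470 to 597 CPM after defeat, against 445 to 534 CPM in controls. All 5 tested blood genes also lay above 0, with a median of 0.29.

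The change of the defeat effect between day 21 and day 1 was tested directly as an interaction. In adolescents all 10 genes had a lower defeat effect at day 21, while 51.4% of all genes had a higher one, with a median log2 difference of effects of -0.94, and all 10 were at an unadjusted p under 0.05, against 2.77% of all genes in that direction. None passed the adjusted threshold in edgeR, against 0.00421% of all genes, and DESeq2 called Tsc22d3, Plin4 and Sult1a1. The smallest edgeR adjusted p was 0.0896 for Tsc22d3, at -0.94 ± 0.17 (SE). Plin4 gave -3.06 ± 0.61, with an adjusted p of 0.132, and Sult1a1 -1.37 ± 0.28, with the same adjusted p.

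In adults at day 1 the genes showed no common direction. Of the 10, 5 had log2 differences above 0, as did 49% of all genes, and the median was -0.001. None passed the adjusted threshold in edgeR, which 0.353% of all genes did, and DESeq2 and limma called none. None was at an unadjusted p under 0.05, against 5.19% of all genes higher and 4.31% lower. For each of the 10 genes the defeat and control libraries overlapped, while over all genes every defeat library lay above every control in 3.07% and below in 2.35%.

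Sgk1 had 195, 130.04, 75.9 and 80.9 CPM in the adult defeat libraries at day 1, against 113, 64.8, 87.1 and 108 CPM in the adult controls, and a log2 difference of 0.37 with a 95% interval of -0.21 to 0.96. Of the 4 defeat libraries, 2 lay above all controls and the other two within the control range. The log2 difference was 0.042 without replicate 1 of the defeat group, 0.23 without replicate 2 of the controls and 0.67 without libraries above 100 CPM of Ttr. Klf15 had 34.8, 27.3, 27.04 and 29.2 CPM after defeat and 28.4, 22.8, 23.6 and 30.96 CPM in controls, and Ddit4 51.6, 42.8, 37.9 and 40.9 CPM after defeat and 36.8, 35.9, 35.5 and 39.3 CPM in controls. Of the 4 Ddit4 defeat libraries, 3 lay above all the controls and the lowest lay between the controls. Tsc22d3 averaged 68.3 ± 8.07 CPM after defeat and 71.4 ± 10.8 CPM in controls (SD, n = 4 each), Klf9 176 ± 10.2 CPM after defeat and 187 ± 7.68 CPM in controls, and Cebpd 5.26 ± 1.78 CPM after defeat and 4.73 ± 0.904 CPM in controls. Pdk4 averaged 15.9 ± 0.940 CPM after defeat and 15.3 ± 3.33 CPM in controls, a log2 difference of 0.06 with a 95% interval of -0.22 to 0.34.

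The lipid droplet gene and its neighbours leaned the other way without passing any threshold. Plin4 had 15.7, 9.85, 7.56 and 16.7 CPM in the adult defeat libraries and 22.5, 11.1, 10.1 and 23.8 CPM in the adult controls at day 1, Hif3a averaged 10.7 ± 1.15 CPM after defeat and 13.2 ± 3.17 CPM in controls, and Sult1a1 averaged 7.73 ± 1.21 CPM after defeat and 9.61 ± 1.89 CPM in controls. The 3 libraries above 100 CPM of Ttr in this comparison were 2 defeat libraries and 1 control library. Without them the log2 difference of Plin4 was 0.11 and that of Tsc22d3 0.15, against -0.44 for Plin4 and -0.063 for Tsc22d3 with all libraries.

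In adults at day 21 the genes split. Plin4 had 14.6, 24.04, 18.3 and 17.6 CPM in the adult defeat libraries, against 5.71, 6.31, 11.4 and 11.4 CPM in the adult controls, with no overlap and a log2 difference of 1.10 ± 0.42 (SE, adjusted p = 0.606). Cebpd had 4.08, 5.35, 4.87 and 5.30 CPM after defeat, against 9.77, 7.06, 8.70 and 5.67 CPM in controls, where all defeat libraries lay below all controls, and a log2 difference of -0.67 ± 0.22 (SE, adjusted p = 0.489). Over all genes 1.99% had every defeat library above every control and 1.9% below. Sgk1 had 76.5, 59.98, 118 and 112 CPM after defeat, against 196, 173, 126 and 88.8 CPM in controls, with overlap, and a log2 difference of -0.67 ± 0.28 (SE, adjusted p = 0.701). At an unadjusted p under 0.05 these were the 1 higher and the 2 lower genes of the 10, against 3.17% of all genes higher and 3.29% lower, and none passed the adjusted threshold in edgeR, which 0.00841% of all genes did, in DESeq2 or in limma.

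The remaining 7 genes differed less between adult groups at day 21. Tsc22d3 averaged 79.98 ± 7.50 CPM after defeat and 81.7 ± 6.45 CPM in controls (SD, n = 4 each), Klf15 27.8 ± 1.74 CPM after defeat and 29.03 ± 2.21 CPM in controls, and Klf9 193 ± 17.2 CPM after defeat and 189 ± 10.2 CPM in controls. Pdk4 averaged 15.1 ± 1.83 CPM after defeat and 17.9 ± 1.57 CPM in controls, and Ddit4 40.8 ± 2.996 CPM after defeat and 46.5 ± 7.24 CPM in controls. Hif3a had 16.4, 12.8, 12.5 and 13.3 CPM after defeat and 6.31, 5.97, 15.9 and 16.2 CPM in controls, where the controls fell into a low and a high pair on either side of most defeat libraries. Sult1a1 averaged 8.33 ± 0.189 CPM after defeat and 6.81 ± 0.865 CPM in controls. Vessel genes had a median log2 difference of -0.20 in this comparison and the 5 tested blood genes -0.18, while the 14 choroid plexus genes had a median of -1.59, with 0 of 14 above 0.

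An interaction of age class and defeat was fitted for each day. At day 1 all 10 genes had a lower defeat effect in adults than in adolescents, while 49.5% of all genes had a higher one, with a median log2 difference of effects of -0.60, and 6 were at an unadjusted p under 0.05, against 3.14% of all genes in that direction. They were Tsc22d3, Klf15, Klf9, Plin4, Hif3a and Sult1a1, with Sult1a1 at -1.12 ± 0.28 (SE) and Plin4 at -1.98 ± 0.60. None passed the adjusted threshold in edgeR, against 0.0168% of all genes, while DESeq2 called Sult1a1. At day 21, 4 genes had a higher defeat effect in adults at an unadjusted p under 0.05, against 3.54% of all genes, namely Tsc22d3, Plin4, Hif3a and Sult1a1. Plin4 had the largest, at 2.62 ± 0.61 with an edgeR adjusted p of 0.169, and DESeq2 called it, while none passed in edgeR, against 0.0252% of all genes. The change of the adult defeat effect between the days was at an unadjusted p under 0.05 for 4 genes, with Plin4 at 1.54 ± 0.59, Sult1a1 at 0.60 ± 0.28, Sgk1 at -1.04 ± 0.40 and Cebpd at -0.83 ± 0.31, against 4.62% of all genes higher and 5.93% lower, and none passed the adjusted threshold, against 0.622% of all genes.

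In the comparison of age classes among controls, some of the 10 genes passed the adjusted threshold of edgeR. At day 1, 4 of the 10 genes were called and all 4 were higher in adult than in adolescent controls, against 4.38% of all genes called in either direction. They were Tsc22d3, Klf15, Pdk4 and Plin4. At an unadjusted p under 0.05, 7 of the 10 lay higher in adults at day 1, against 8.62% of all genes, and for 6 every adult control lay above every adolescent one, against 4.36%. At day 21, 5 were called, all higher in adults, against 6.06% of all genes, namely Sgk1, Tsc22d3, Klf15, Pdk4 and Cebpd. In that comparison 6 lay higher at an unadjusted p under 0.05, against 10.1% of all genes, and 4 had every adult above every adolescent control, against 7.09%. DESeq2 and limma on log2 FPKM gave the same numbers, 4 and 5. The day 1 comparison shares its adolescent controls with the adolescent defeat comparison at day 1, so low values in those libraries enter both.

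Pdk4, the brake on pyruvate oxidation, had the smallest adjusted p of the 10 on both days. It had 20.2, 13.6, 13.2 and 13.98 CPM in adult controls, against 10.1, 7.65, 8.22 and 9.04 CPM in adolescent controls at day 1, a log2 difference of 0.80 ± 0.14 (SE, adjusted p = 0.0005). At day 21 it had 17.2, 16.2, 19.8 and 18.4 CPM in adult controls, against 9.42, 13.1, 12.9 and 11.1 CPM in adolescent controls, a log2 difference of 0.62 ± 0.14 (SE, adjusted p = 0.0043). The age classes did not overlap on either day. Klf15, which controls amino acid and glucose metabolism in liver and muscle, had 28.4, 22.8, 23.6 and 30.96 CPM in adult controls, against 20.1, 19.5, 17.98 and 21.3 CPM in adolescent controls at day 1, a log2 difference of 0.42 ± 0.11 (SE, adjusted p = 0.0161). At day 21 it had 29.5, 26.9, 31.9 and 27.8 CPM in adult controls, against 17.2, 21.04, 24.9 and 22.3 CPM in adolescent controls, again without overlap, and a log2 difference of 0.44 ± 0.10 (SE, adjusted p = 0.0087).

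Tsc22d3 had 84.04, 62.6, 62.3 and 76.6 CPM in adult controls, against 44.4, 44.4, 51.99 and 59.2 CPM in adolescent controls at day 1, a log2 difference of 0.51 ± 0.12 (SE, adjusted p = 0.0127). At day 21 it had 78.02, 79.1, 91.3 and 78.2 CPM in adult controls, against 51.95, 54.9, 62.6 and 72.9 CPM in adolescent controls, a log2 difference of 0.43 ± 0.12 (SE, adjusted p = 0.0314). On both days the lowest adult library lay above the highest adolescent one. Sgk1 passed at day 21, with 196, 173, 126 and 88.8 CPM in adult controls, against 53.1, 58.7, 66.6 and 87.5 CPM in adolescent controls and a log2 difference of 1.14 ± 0.29 (SE, adjusted p = 0.014), while at day 1 the log2 difference was 0.42 with an adjusted p of 0.512. Cebpd passed at day 21, with 9.77, 7.06, 8.70 and 5.67 CPM in adult controls, against 2.94, 4.23, 3.47 and 5.74 CPM in adolescent controls, overlapping by a single library, and a log2 difference of 0.93 ± 0.22 (SE, adjusted p = 0.0082).

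Plin4 differed between the days. It had 22.5, 11.1, 10.1 and 23.8 CPM in adult controls, against 9.34, 6.16, 3.33 and 3.78 CPM in adolescent controls at day 1, a log2 difference of 1.58 ± 0.43 (SE, adjusted p = 0.0308). At day 21 all adult controls lay below all adolescent controls, with 5.71, 6.31, 11.4 and 11.4 CPM in adults, against 11.9, 14.2, 13.5 and 18.4 CPM in adolescents, and the log2 difference was -0.74 ± 0.42 (SE, adjusted p = 0.362), not past the threshold. Over all genes, 5.45% had every adult control below every adolescent control at day 21.

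The number of calls between age classes changed when single libraries were left out, while Pdk4 was called on both days whichever was left out. Fewer libraries lower the power for every gene, and the share of all genes called in these fits is not given here. At day 1 the count was 1 without adult replicate 1, 2 without adult replicate 4, adolescent replicate 2 or adolescent replicate 3, and 3 without adolescent replicate 1 or 4. At day 21 it was 2 without adolescent replicate 1, 3 without adolescent replicate 2 or adult replicate 2, 4 without adult replicate 1 or 3, and 6 without adolescent replicate 4, which added Ddit4. Without the libraries above 100 CPM of Ttr, which were 1 in each adult and adolescent control group, Pdk4 alone was called at each day. Vessel genes had a median log2 difference of -0.30 between adult and adolescent controls at day 1 and 0.27 at day 21, and the tested blood genes -0.51 at day 1 and 0.33 at day 21. Choroid plexus genes had a median of 1.02 at day 1, with 14 of 14 above 0, and 0.27 at day 21, with 11 of 14 above 0. Oligodendrocyte genes had a median of -0.33 at day 1 and -0.09 at day 21, with 0 of 6 above 0 on both days. The part of these lists in the age differences was not tested. Vessel transcripts summed to 339 to 459 CPM in adult controls, against 429 to 507 CPM in adolescent controls at day 1, and to 520.4 to 584 CPM against 445 to 534 CPM at day 21.

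**Figure D3:**
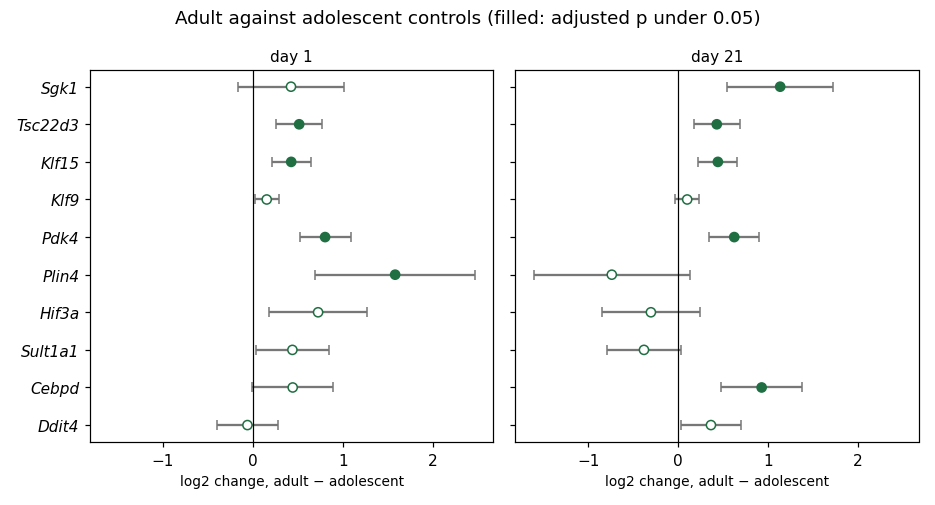
Log2 difference of adult minus adolescent controls (horizontal axes) for each gene at day 1 and day 21, with 95% intervals from edgeR. Filled points passed the adjusted threshold of 0.05, 4 at day 1 and 5 at day 21; Plin4 lies above 0 at day 1 and below 0 at day 21.

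Between day 21 and day 1 among controls, none of the 10 was called in either age class in edgeR, against 0.925% of all genes in adolescents and 0.858% in adults. At an unadjusted p under 0.05, Tsc22d3, Pdk4, Plin4 and Hif3a lay higher at day 21 in adolescent controls, against 5.69% of all genes, with Plin4 at 1.36 ± 0.43 (SE) and Hif3a at 0.77 ± 0.27. In adult controls Sgk1 and Cebpd lay higher and Plin4 and Sult1a1 lower at that p, against 6.7% of all genes higher and 6.2% lower, with Cebpd at 0.72 ± 0.22 and Plin4 at -0.96 ± 0.42, and DESeq2 called Cebpd.

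Other glucocorticoid-responsive genes were followed in a list of 24. In the adolescent day 1 comparison 22 of them lay above 0, with a median log2 difference of 0.29, 11 were higher at an unadjusted p under 0.05, against 4.24% of all genes, and none passed the adjusted threshold. Tgm2, a transglutaminase that crosslinks proteins, averaged 13.2 ± 2.52 CPM after defeat and 8.58 ± 1.005 CPM in controls, and Net1, an activator of the small GTPase RhoA, averaged 19.6 ± 1.80 CPM after defeat and 14.8 ± 0.815 CPM in controls. Fkbp5, a co-chaperone that dampens the receptor, averaged 49.6 ± 10.1 CPM after defeat and 37.5 ± 1.88 CPM in controls, and Rhob, a small GTPase, averaged 374 ± 12.4 CPM after defeat and 337 ± 18.6 CPM in controls. Every defeat library lay above every control for Tgm2, Net1 and Fkbp5, as in 2.64% of all genes. The edgeR adjusted p was 0.105, 0.105 and 0.212 for them, while Rhob overlapped, with 0.380. These 4 genes were named for their smallest p among the 24 in this comparison, which favours separate groups.

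In adolescents at day 21, 8 of the 24 lay above 0, with a median of -0.09, 3 were lower at an unadjusted p under 0.05, against 2.99% of all genes, and none was called. The gap junction gene Gjb6 averaged 36.7 ± 3.35 CPM after defeat and 45.4 ± 2.24 CPM in controls, the syndecan Sdc4 45.5 ± 5.63 CPM after defeat and 56.97 ± 4.98 CPM in controls, the phagocytic receptor Mertk 40.9 ± 3.12 CPM after defeat and 49.7 ± 1.58 CPM in controls and Fkbp5 39.8 ± 1.44 CPM after defeat and 45.9 ± 3.80 CPM in controls. All 4 genes had each defeat library below each control, as did 1.94% of all genes. They were named for their smallest p among the 24 in this comparison, which favours separate groups.

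In adults at day 1 a single gene of the 24, the clock repressor Per1, was called and was higher after defeat, against 0.353% of all genes called. Per1 averaged 131 ± 17.2 CPM after defeat and 79.5 ± 1.84 CPM in controls, a log2 difference of 0.72 ± 0.11 (SE, edgeR adjusted p 0.0012). At an unadjusted p under 0.05, 4 of the 24 were higher and 1 lower, against 5.19% and 4.31% of all genes. Dusp1, a phosphatase of MAP kinases, averaged 32.9 ± 4.69 CPM after defeat and 22.5 ± 1.83 CPM in controls, Arl4d, a small GTPase, 27.5 ± 8.23 CPM after defeat and 18.04 ± 2.23 CPM in controls, and Errfi1, an inhibitor of EGF receptors, 34.2 ± 2.13 CPM after defeat and 28.98 ± 3.98 CPM in controls. Per1, Dusp1 and Arl4d are also induced by neuronal activity or other signals, and the median of the list was -0.07, with 9 of 24 above 0. At day 21 none was called in adults, with 4 higher and 7 lower at an unadjusted p under 0.05, against 3.17% and 3.29% of all genes. The median of the list was 0.06 in that comparison, with 14 of 24 above 0. Per1 averaged 97.9 ± 9.05 CPM after defeat and 133 ± 10.5 CPM in controls, Dusp1 22.9 ± 2.19 CPM after defeat and 37.1 ± 8.61 CPM in controls, Net1 14.9 ± 1.79 CPM after defeat and 18.9 ± 1.77 CPM in controls and Arl4d 21.7 ± 3.21 CPM after defeat and 35.03 ± 7.80 CPM in controls. The genes named in adults on each day, Fkbp5 aside, had the smallest p among the 24 in that comparison, which favours separate groups. Fkbp5, named above for adolescents, averaged 42.5 ± 4.36 CPM after defeat and 48.7 ± 3.57 CPM in controls in adults at day 1. At day 21 it averaged 55.05 ± 3.29 CPM after defeat and 44.2 ± 8.07 CPM in controls, with every defeat library above every control. Over all genes 1.99% did so, and its edgeR adjusted p was 0.522. Among controls, 2 of the 24 were called higher in adults at day 1, against 2.54% of all genes, and 7 at day 21, against 3.78%.

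The receptors themselves differed little with defeat. In adolescents Nr3c1 averaged 72.7 ± 1.41 CPM after defeat and 74.4 ± 3.08 CPM in controls at day 1, and 74.02 ± 2.95 CPM after defeat and 66.96 ± 5.28 CPM in controls at day 21. In adults it averaged 82.5 ± 4.23 CPM after defeat and 76.7 ± 6.02 CPM in controls at day 1, and 69.99 ± 5.86 CPM after defeat and 75.5 ± 6.77 CPM in controls at day 21. Nr3c2 averaged 35.6 ± 1.54 CPM after defeat and 38.5 ± 7.30 CPM in controls in adolescents at day 1, and 39.7 ± 2.92 CPM after defeat and 34.1 ± 1.64 CPM in controls at day 21. Its adult levels were 35.2 ± 3.33 CPM after defeat and 36.5 ± 8.43 CPM in controls at day 1, and 36.3 ± 8.77 CPM after defeat and 34.8 ± 1.20 CPM in controls at day 21. Neither passed the adjusted threshold in any defeat comparison, with Nr3c1 in adolescents at day 21 at an unadjusted p of 0.031.

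Within groups the 10 genes were correlated with one another, an analysis added after the data had been seen. With group means removed from log2 CPM, 12 of 45 pairs passed a permutation test over the 32 libraries after adjustment over the 45, and all 12 were positive. The smallest r among the 12 was 0.51, which 13 of the 45 pairs (28.9%) reached, against 2.71% of all pairs among 12304 genes, the 10 and those with a mean of at least 5 CPM. Sgk1 and Ddit4 were closest, with Pearson's r of 0.75, Spearman's rho of 0.82 and a permutation p of 1e-05, the smallest that 100000 permutations can give. Sgk1, Ddit4, Tsc22d3 and Cebpd were linked in all their pairs, with r from 0.54 to 0.75, and Klf15 was linked to Tsc22d3 (r = 0.68), Pdk4 (0.58), Cebpd (0.56) and Plin4 (0.51). Plin4 was linked to Sult1a1 (r = 0.71, rho = 0.69, adjusted p = 0.0244) and Hif3a (r = 0.51, rho = 0.56, adjusted p = 0.0368). Neither Hif3a nor Plin4 was linked to Sgk1, Ddit4, Tsc22d3 or Cebpd, with r from -0.23 (Ddit4) to 0.33 (Tsc22d3) for Hif3a and from -0.07 (Ddit4) to 0.39 (Tsc22d3) for Plin4, and Klf9 was linked to none of the other members. Without the 2 libraries farthest from the median, all 12 pairs kept an r above 0.4. The points share a library, and so its depth and tissue make-up, between both genes of a pair.

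**Figure D4:**
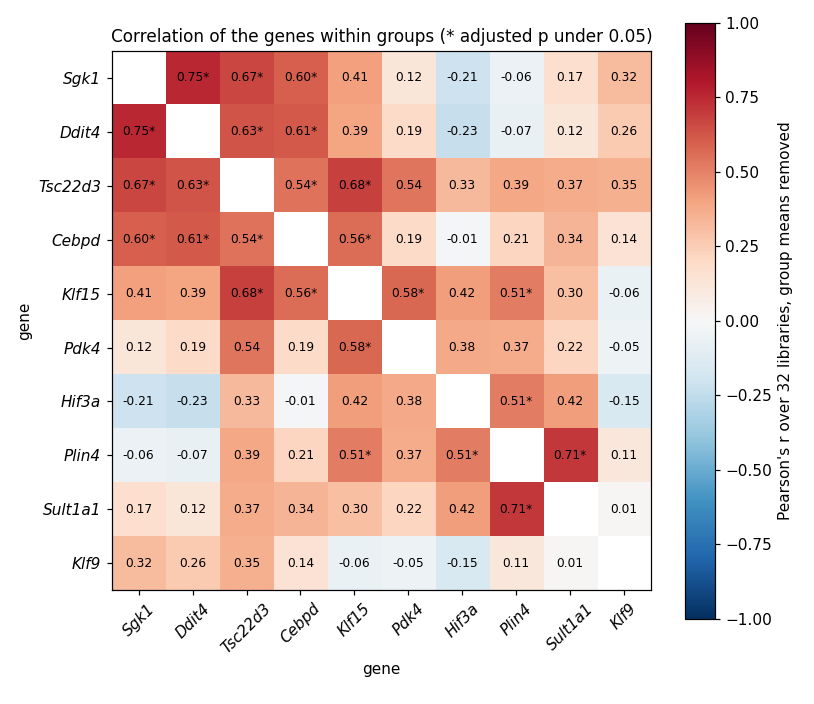
Pearson's r between each pair of the 10 genes over 32 libraries, computed on log2 CPM with group means removed, on a colour scale from -1 to 1. Stars mark the 12 pairs with an adjusted permutation p under 0.05; Sgk1, Ddit4, Tsc22d3 and Cebpd form a block of positive values at the top left, and Klf9 has no star.

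The genes outside the 10 that most resembled them were found over the 12294 genes with a mean of at least 5 CPM, by Pearson's r with the mean of the 10 genes' standardised levels, group means removed, over 32 libraries. Arrdc2, an arrestin domain protein, came first (r = 0.80), followed by Sdc4 (0.76), Mat2a (0.75), which makes S-adenosylmethionine, the predicted gene Gm19439 (0.75) and the adiponectin receptor Adipor2 (0.73). Arrdc2 followed Sgk1 (r = 0.80) and Tsc22d3 (0.80) and not Hif3a (0.02). Sdc4 followed Plin4 (0.68), Klf15 (0.66), Tsc22d3 (0.64) and Hif3a (0.58) more than Sgk1 (0.23). Among the 10, Tsc22d3 had the highest r with the mean of the other members (0.86) and Klf9 the lowest (0.16).

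Each gene was then related to vessel, blood and Ttr transcripts across libraries, 30 relations in all, with group means removed and permutation within groups. None passed after adjustment over the 30 relations. For the vessel score, the mean log2 CPM of the 21 vessel genes, r lay between -0.14 and 0.36, and Hif3a was at an unadjusted p under 0.05, with r of 0.36 (permutation p = 0.0199, adjusted p = 0.173) and rho of 0.34 (p = 0.0590, adjusted p = 0.366). Its r was 0.29 without the 2 libraries farthest from the median of the score.

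For the blood score, the mean log2 CPM of its tested genes, r lay between -0.09 and 0.52 and was positive for 9 genes, with 5 at an unadjusted p under 0.05 and the smallest adjusted p at 0.157. Klf15 had r of 0.52 and rho of 0.49, Cebpd r of 0.51 and rho of 0.49, Sult1a1 r of 0.48 and rho of 0.49, Plin4 r of 0.44 and rho of 0.33, and Hif3a r of 0.34 and rho of 0.35. Without the 2 libraries farthest from the median of the score, r was 0.37 for Klf15, 0.39 for Cebpd, 0.39 for Sult1a1, 0.34 for Plin4 and 0.35 for Hif3a, and Cebpd alone remained at a permutation p under 0.05 (0.0437). Sgk1 had r of 0.19 with the blood score and Ddit4 0.05.

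For log2 Ttr over the 32 libraries, with group means removed, r lay between -0.26 and 0.16 and was positive for 5 genes. Without the 2 libraries farthest from the median it was positive for 1. Ttr falls into separate clusters of libraries, so r was also taken within each cluster, without removing group means. Libraries were permuted across groups here, so differences between groups enter both r and p. In the 11 libraries above 100 CPM, which include all 4 of adolescent defeat day 1, r lay between -0.28 for Cebpd and 0.35 for Pdk4, and no gene was at a permutation p under 0.05. In the 21 libraries at or under 100 CPM, r lay between 0.02 for Plin4 and 0.43 for Cebpd, which had a permutation p of 0.0491 and an adjusted p of 0.280. Replicate 1 of adult control day 21, in this cluster, held 85.3 CPM of Ttr, against 1.07 to 22.2 CPM in the other libraries of the cluster. It also had the highest Cebpd of the 32 libraries, 9.77 CPM, and r without it was not computed.

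**Figure D5:**
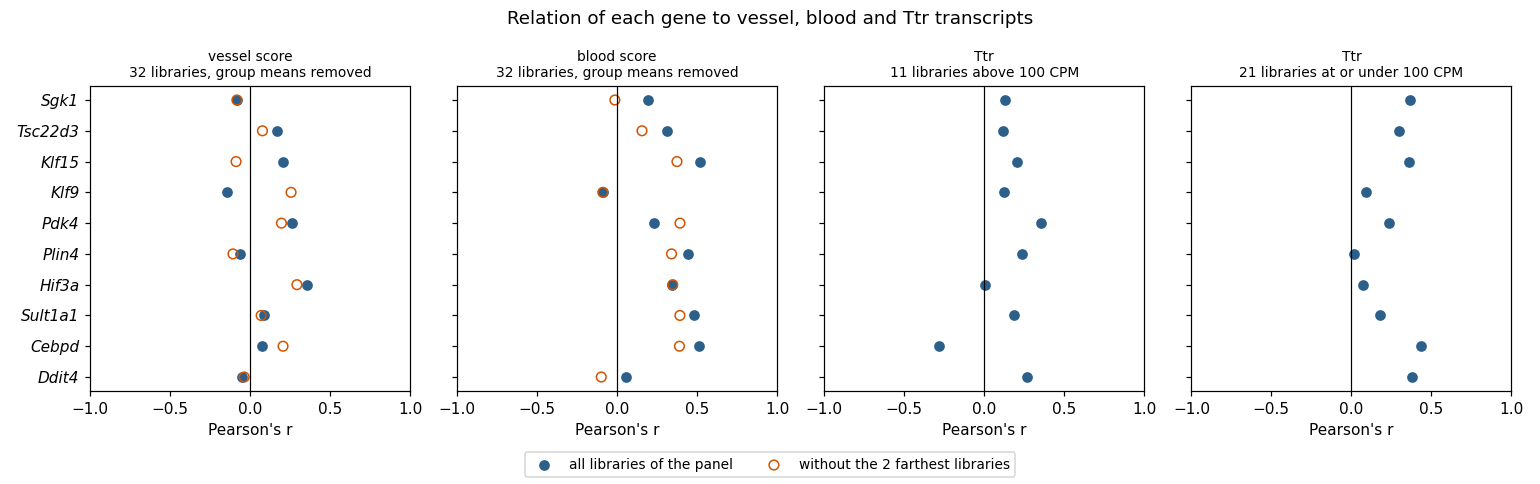
Pearson's r (horizontal axes, from -1 to 1) of each gene with the vessel score, the blood score and log2 Ttr. Filled points use all libraries of a panel and open points leave out the 2 libraries farthest from the median of the score. Most blood values lie to the right of 0, up to 0.52, and vessel values scatter around 0. Ttr values lie right of 0 for 9 genes above 100 CPM and for all 10 at or under it, up to 0.43. Group means were not removed in the Ttr panels. With them removed over 32 libraries, which is not drawn, r with Ttr was positive for 5 genes.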

How the data were processed

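Poly(A) RNA was captured on oligo(dT) beads, per the labels' protocols. Per the submitters' processing notes, cutadapt 1.9, HISAT2 2.0.4, StringTie 1.3.4d and edgeR were used, with no roles given. The authors deposited raw read counts and FPKM values per gene; the notes name hg38 although the identifiers are mouse ones, so the build of the table is unclear and its positions are not printed. No source used here says whether counting used strand.

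Counts were tested with edgeR 4.0.16 (R 4.3.3): default expression filter, TMM scaling, a single quasi-likelihood fit of all 8 groups (24 residual degrees of freedom), and Benjamini-Hochberg adjustment over 23778 genes with a threshold of 0.05. SE is the absolute log2 difference divided by the square root of F. CPM values use TMM factors. Alternatives were DESeq2 1.42.0, limma 3.58.1 on log2(FPKM + 0.1) and log2(FPKM + 1), other scaling and filtering, Ttr, vessel and blood covariates, and libraries left out. Tests were checked on simulated counts. Shares of all genes called are those of edgeR with all libraries, and none is given for the alternatives. Scores are mean log2 CPM, and relations used 100000 permutations within groups, or across groups for Ttr within its clusters.

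The 10 genes and all lists were chosen with earlier results of these data known. By rule the text names the 10 genes in every defeat comparison and elsewhere at an unadjusted p under 0.05, up to 4 of the 24 other responsive genes per defeat comparison by smallest p, the receptors, the 6 most similar genes (1 of them is not reported here), and marker genes where a level is given; members past these limits are named where a comparison needs them.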

Additional observations from a re-analysis of the deposited data

Results flagged for a closer look

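Of the 80 sets of 4 libraries given by 10 genes in 8 groups, 3 had a library far from the rest by Dixon's test. Tsc22d3 had 91.3 CPM in replicate 3 of adult control day 21, against 78.0 to 79.1 CPM in the other libraries of that group. Pdk4 had 20.2 CPM in replicate 1 of adult control day 1, against 13.2 to 13.98 CPM in the others. Ddit4 had 59.8 CPM in replicate 4 of adolescent defeat day 1, against 48.4 to 50.05 CPM in the others.

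Of 24 sets for Ttr and the summed vessel and blood levels, 6 had such a library. Ttr was at 982 CPM in replicate 3 of adolescent control day 1, against 2.90 to 13.7 CPM in the others. It was at 640 CPM in replicate 1 of adolescent control day 21, against 2.18 to 8.90 CPM, and at 622 CPM in replicate 1 of adolescent defeat day 21, against 1.07 to 7.91 CPM. Replicate 1 of adult control day 1, the library with the high Pdk4 value, had 2342 CPM of Ttr, against 6.51 to 14.7 CPM in the others. Vessel transcripts summed to 534 CPM in replicate 2 of adolescent control day 21, against 445 to 450 CPM in the others, and to 667 CPM in replicate 1 of adult defeat day 21, against 402 to 420 CPM in the others. Chance alone marks about 1 in 20 such sets.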

How the results depend on the processing

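Over 85 gene-by-comparison results, 1705 of 1781 alternative values kept their direction and side of the threshold. Of the rest, 25 gained the threshold, 35 lost it and 16 turned direction, and the causes were not tested. The 85 hold all 10 genes in the 4 defeat comparisons, but in the other comparisons only genes at an unadjusted p under 0.05. That choice favours kept directions outside the defeat comparisons. DESeq2 called 3 genes for adolescent defeat at day 1, 3 for its change between days, and 1 each for the age difference in defeat at day 1 and at day 21 and for day in adult controls. With the replicate block, 2 genes (Tsc22d3 and Klf15) were called for adolescent defeat at day 1 and 1 (Tsc22d3) for its change between days. Same-numbered libraries had deviations correlated at -0.14 to 0.07, so the numbers are not treated as pairs. With the blood covariate, and with a fit of the groups compared alone, 1 gene (Plin4) was called for the age difference in defeat at day 21 and 1 for day in adolescent controls. The fit of the groups alone left 1 call between age classes in controls at day 1, and without libraries above 100 CPM of Ttr 1 call was left at each day, all of them Pdk4.

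With each library left out in turn, calls ranged from 0 to 3 for adolescent defeat at day 1 and for its change between days (3 without replicate 2 of adolescent defeat day 1 in both), from 1 to 4 between age classes in controls at day 1, from 2 to 6 at day 21 and from 0 to 2 for the relations (2 without replicate 4 of adolescent control day 1), and were 0 throughout for the other comparisons. Without the 4 adolescent defeat day 1 libraries 1 relation, Sult1a1 with the blood score, was called.

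The turned directions were all in defeat comparisons without a call. Elsewhere only genes at an unadjusted p under 0.05 were followed, which makes a turn there less likely. In adults at day 21 Tsc22d3 was at 0.0076 with the vessel covariate, 0.0080 with the blood covariate and 0.031 without libraries above 100 CPM of Ttr, against -0.030. In adults at day 1 Cebpd was at -0.042 with the blood covariate, and Tsc22d3 at 0.15 and Plin4 at 0.11 without those libraries, against 0.15 for Cebpd, -0.063 for Tsc22d3 and -0.44 for Plin4 with all libraries and no covariate. The median of the 10 genes in adults at day 1 was 0.21 without libraries above 100 CPM of Ttr, against -0.001 with all libraries. With each library left out in turn, log2 differences ranged in adults at day 21 from -0.066 to 0.033 for Tsc22d3 and from -0.028 to 0.078 for Klf9, and in adults at day 1 from -0.057 to 0.29 for Cebpd and from -0.12 to 0.025 for Tsc22d3. In adolescents at day 21 they ranged from -0.16 to 0.0058 for Klf15, from -0.19 to 0.068 for Sgk1 and from -0.32 to 0.042 for Cebpd.

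All 10 genes have at least 153 counts in every library, so with 4 libraries in a group the spread between libraries, more than depth, sets the precision.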

Other observations

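Some libraries stood at one end of their group for most of the 10 genes. In adolescent defeat day 21, replicate 4 was the highest of its group for 8 genes, and in adult defeat day 1, replicate 3 was the lowest for 7. In adolescent control day 21, replicate 1 was the lowest for 7 and replicate 4 the highest for 6. Replicate 1 of that group held 640 CPM of Ttr, while replicate 4 held 3.74 CPM.

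Lists of other cell types were summed for the adolescent day 1 pair. Meningeal fibroblast genes lay at 66.8 to 98.3 CPM in the defeat libraries, against 40.2 to 85.4 CPM in the controls. Astrocyte genes lay at 887 to 1120 CPM in the defeat libraries, against 1031 to 1269 CPM in the controls, and neuron genes at 2843 to 3422 CPM in the defeat libraries, against 3106 to 3367 CPM in the controls. The part of these lists in the levels of the 10 genes was not tested.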
